A study of Mus musculus with 9 samples.

Results

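The 39 genes described here are endothelial and angiogenesis genes, selected from the expression table by their symbols. They comprise 13 endothelial surface, junction and vessel-wall markers, 4 VEGF ligands, 5 VEGF receptors and co-receptors, 4 genes of the angiopoietin and Tie system, 3 endothelial transcription factors, 6 Notch and ephrin genes, the apelin ligand and receptor, and both hypoxia-inducible factor alpha subunits. All 39 were found among the 18272 genes of the expression table, and all 39 were among the 13960 genes that had at least 10 counts in at least 3 libraries and were tested. Bulk RNA-sequencing was performed on 9 tibias of female C57BL/6J mice, purchased at 10 to 11 weeks of age, with 3 mice per group. The NGT group had normal glucose tolerance, was injected with vehicle according to the study's methods and received saline. The T1D group was made diabetic with 1 injection of streptozotocin (STZ), a toxin of pancreatic beta cells, and received saline. The Lira group was made diabetic in the same way and received the GLP-1 receptor agonist liraglutide at 0.6 mg/kg/day. Treatment began 2 weeks after STZ and lasted 8 weeks by the study's methods, while Lira mouse 3 is labelled with 9 weeks. The labels give no genetic change in any group, and STZ removes beta cells chemically, without the autoimmunity of human type 1 diabetes.

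Endothelial cells line every vessel of bone and marrow, and in the long bones the vessels are closely tied to bone formation. VEGF ligands act through the receptors Kdr, Flt1 and Flt4 with neuropilins as co-receptors, the angiopoietins act through Tek to keep vessels quiet or loosen them, and Notch signalling between neighbouring endothelial cells sets arterial identity and restrains sprouting. When oxygen is low, the hypoxia-inducible factors Hif1a and Epas1 are stabilised as proteins and switch on genes such as Vegfa, a control that is not read from their own mRNA.

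No endothelial or angiogenesis gene passed the test in any comparison. In T1D against NGT mice all 39 fitted differences were within 2-fold, and 25 of the 39 were negative, with a median log2 difference of -0.14 (from -0.25 without NGT mouse 3 to -0.080 without NGT mouse 1, and -0.067 with plain library-size scaling), while 52.1% of all genes tested had a positive one. In Lira against T1D mice all 39 were again within 2-fold, and 27 of the 39 were positive, beside 55.3% of all genes, with a median of 0.14 that was -0.064 without Lira mouse 2 and 0.021 with plain library-size scaling. Angpt2, the antagonist ligand of Tek, was higher in each of the 3 T1D mice than in any NGT or Lira mouse, but its adjusted p-value was near 1. Cldn5 also lay higher in all 3 T1D mice than in any NGT mouse, while Flt1, Epas1, Vegfb and Robo4 lay lower. T1D and NGT values thus did not overlap for 2 of the 39 genes with T1D higher and 4 with T1D lower. Over all genes the shares were 3.52% and 5.08%, and none of these differences of the 39 passed the test.

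Levels are given as CPM (counts relative to the TMM-scaled library total), and levels of different genes are compared only as FPKM, which is per gene length. Differences are log2 fold changes with standard errors (SE) and p-values of edgeR's quasi-likelihood test, adjusted by the Benjamini-Hochberg method over all 13960 genes. A gene with an unadjusted p-value under 0.05 is called nominal. A gene was called when its adjusted p-value was under 0.05 and its fold change over 2. In bulk tissue, fewer endothelial cells and less RNA per cell cannot be told apart. The labels name each library by group and number only, so the p-values measure the spread between these samples.

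The 9 libraries differed widely in the cells they held. Library totals were 13086373 to 16528394 counts, so that 3 counts, the limit of a gene at 0, correspond to 0.163 to 0.237 CPM. The mean log2(CPM + 1) of 11 neutrophil markers ran from 0.60 in NGT mouse 2, where Mpo, Mmp8 and Retnlg were at 0, to 8.38 in Lira mouse 3, and that of 10 erythroid markers from 2.97 to 9.34 in the same libraries. The 10 macrophage and osteoclast markers averaged 6.16 in T1D mouse 1 and 1.76 to 4.03 in the other 8 libraries. Skeletal muscle remained in all of them, with 15 muscle genes taking 12.8% of the counts in T1D mouse 1 and up to 24.5% in NGT mouse 3. Against this, the mean of the 13 endothelial markers stayed between 5.02 in NGT mouse 3 and 5.55 in Lira mouse 1. The part of marrow, macrophage and muscle content in the values below was not tested.

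**Figure D1:**
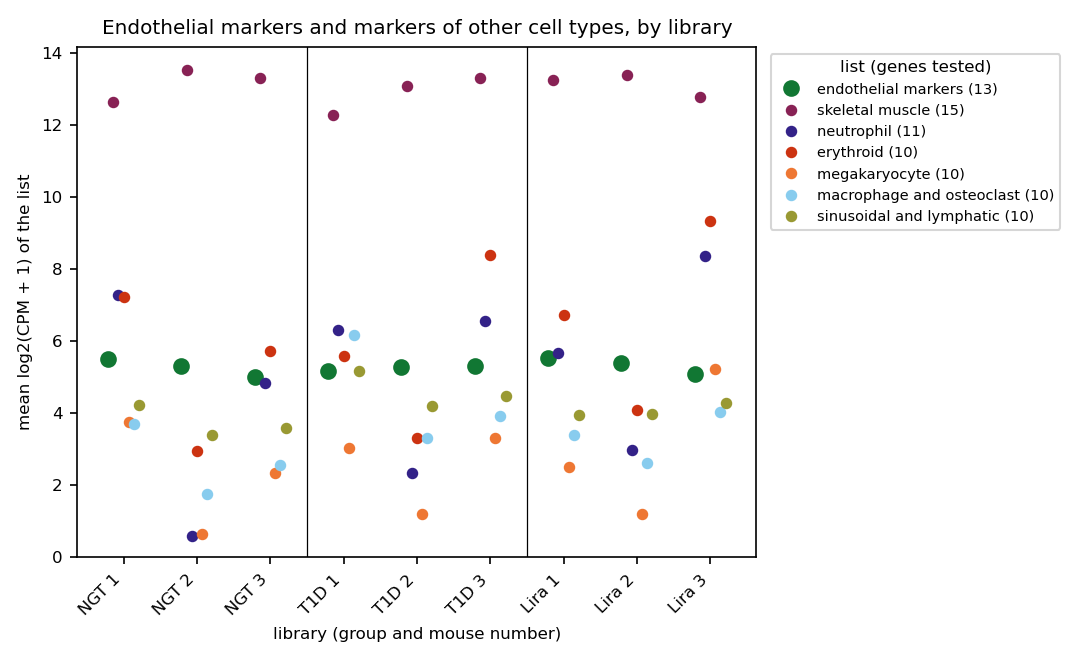
Mean log2(CPM + 1) of the endothelial markers (large points) and of other cell type marker lists (small points) in each of the 9 libraries, grouped as NGT, T1D and Lira mice 1 to 3 along the horizontal axis. The endothelial points lie between 5.02 and 5.55, whereas the neutrophil points run from 0.60 to 8.38.

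Defining endothelial markers were present in all 9 libraries, with Pecam1 at 81.1 CPM or more and Cdh5 at 71.8 CPM or more in each. In mean FPKM over the 9 libraries, the water channel Aqp1 was highest at 110, followed by the ligands Vegfb at 106 and Vegfa at 61.7 and the hypoxia-inducible factor Epas1 at 41.5. Aqp1 and Vegfb are also made by cells other than endothelium, such as red cell precursors and muscle. The junction genes Pecam1 and Cdh5 followed at 32.8 and 26.3, and Egfl7, Eng, Plvap, Esam and Emcn lay between 20.4 and 14.4. Among VEGF receptors, Nrp1 stood at 10.1, Flt1 at 9.97 and Kdr at 8.55. At the bottom were Angpt2 at 1.29, the VEGF family ligand Pgf at 0.686 and Apln, the ligand of the apelin receptor, at 0.426. Neighbours in this order such as Nrp1, Flt1 and Cldn5 at 9.94 differed by far less than the spread of any of them over the libraries.

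**Figure D2:**
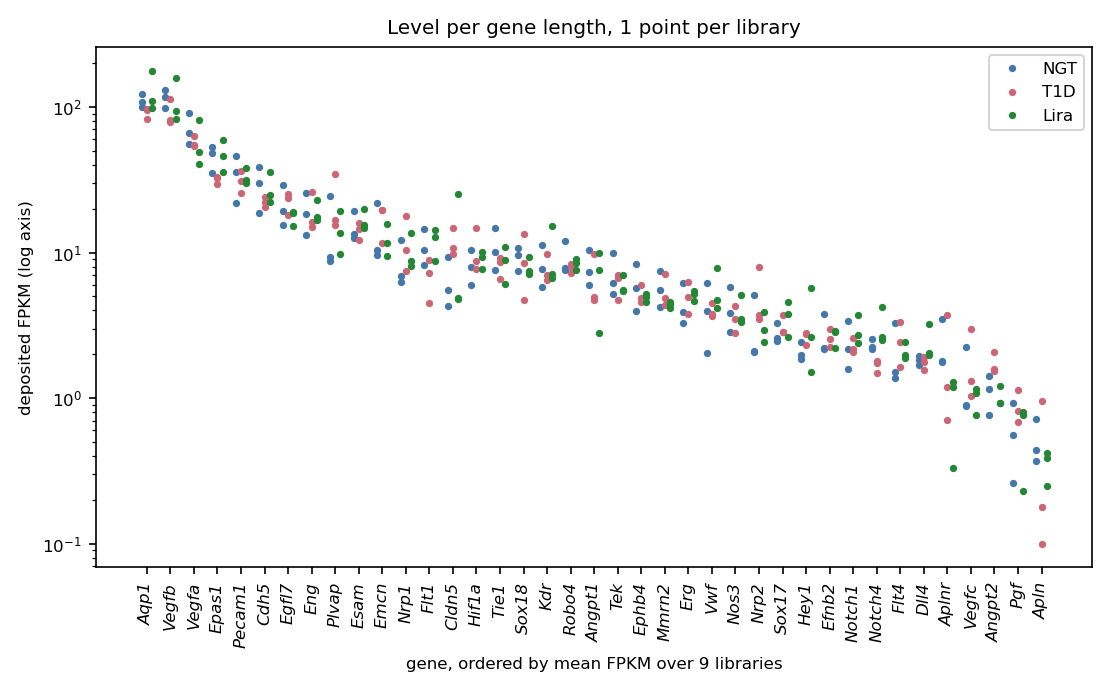
FPKM of the 39 genes on a log axis, ordered by mean FPKM over the 9 libraries, with a point for each library coloured by group. Aqp1 is highest with a mean of 110 and Apln lowest with a mean of 0.426.

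Across the 9 libraries the highest CPM of a gene exceeded its lowest by a median factor of 2.19 for the 39 genes and 2.15 for all genes tested. The ratio was lowest for Egfl7, a secreted endothelial protein, at 1.52, and highest for Aplnr, the apelin receptor, at 8.34. A ratio under 2 was found for 16 of the 39 genes and for 44.2% of all genes tested. Lira mice 1 and 2 held the highest value of 11 and 9 of the 39 genes, and of 9.92% and 11.4% of all genes tested. T1D mouse 1 held the lowest value of 12 of the 39, Lira mouse 3 of 8, NGT mouse 3 of 7 and Lira mouse 1 of 6. Over all genes tested these libraries were lowest for 23.8%, 8.61%, 11.4% and 10.3%.

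**Figure D3:**
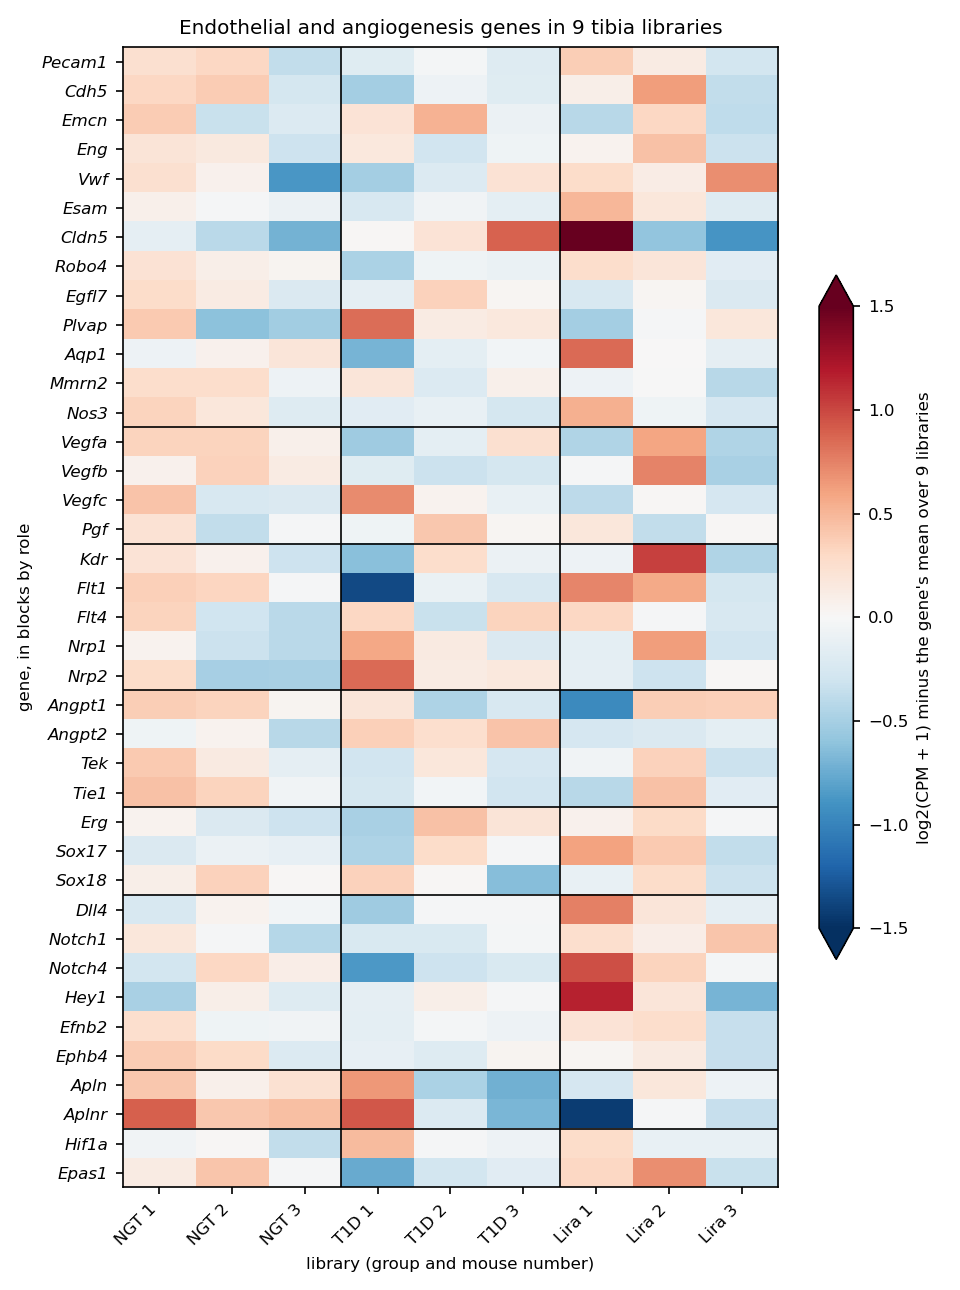
Heat map of the 39 genes (rows, by role) in the 9 libraries (columns), coloured by log2(CPM + 1) minus the gene's mean over the libraries. Lira mice 1 and 2 hold the highest value of 11 and 9 genes, T1D mouse 1 the lowest of 12.

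The T1D and NGT mice were compared to find out which of these genes differed in diabetes. With edgeR's quasi-likelihood test 0 of the 39 were called, as were 0 of all genes tested, and DESeq2 and limma on log2(CPM + 1) also called 0 of the 39. Nominal differences numbered 1 of the 39 with edgeR (1 with T1D higher, 0 lower) and 1 each with DESeq2 and limma, beside 3.95% of all genes tested with edgeR (2.36% higher, 1.6% lower). Groups did not overlap, with T1D higher, for 2 of the 39 (3.52% of all genes) and, with T1D lower, for 4 (5.08% of all genes). Positive differences made up 14 of the 39 and 52.1% of all genes, whose median difference was 0.02. Leaving out 1 mouse at a time, 0 to 2 genes were nominal. The study's methods describe no pairing of mice, but the same-numbered NGT and T1D libraries deviated together from their group means. The mouse number was therefore used as a block, chosen from these same data, in a fit of these 6 libraries alone. There 8 of the 39 were nominal with adjusted p-values of 0.229 to 0.343, and 0 were called. In that fit 14.2% of all 13625 genes tested were nominal. The 8 were Cldn5, Plvap, Nrp1 and Nrp2 with T1D higher, and Vegfb, Tie1, Notch4 and Epas1 with T1D lower. For the last 4 the unadjusted p-values of this blocked edgeR fit were 0.0237, 0.0269, 0.0193 and 0.0209. T1D was higher in all 3 same-numbered pairs for 7 of the 39 genes (19.2% of all genes) and in 0 of the 3 pairs for 10 (19.0% of all genes).

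The Lira and T1D mice were compared to find out which of the same genes differed with liraglutide in diabetic mice. Again 0 of the 39 were called by edgeR, and DESeq2 and limma also called 0 of the 39. Nominal were 5 of the 39 with edgeR, 5 with DESeq2 and 3 with limma, beside 3.33% of all genes with edgeR (1.55% higher, 1.78% lower). The 5 were Flt1, Notch1, Notch4 and Epas1 with Lira higher and Angpt2 with Lira lower. Over 13 alternatives Notch4 was nominal in 12, Angpt2 in 9, Flt1 in 8, Epas1 in 7 and Notch1 in 5. Without Lira mouse 3, the library highest in neutrophil and erythroid markers, this count was 11 of the 39, beside 5.35% of all genes in that fit, and without Lira mouse 1 it was 1, beside 1.83%. Groups did not overlap for 2 genes with Lira higher (3.74% of all genes) and 2 with Lira lower (3.4% of all genes). The median over all genes was 0.04, and the 27 positive genes of the 39 became 22 with plain library-size scaling and 17 without Lira mouse 2. Since the 3 T1D mice serve in this and the preceding comparison, a value lying low in T1D enters both with opposite sign.

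In Lira against NGT mice, 0 of the 39 were called and 0 were nominal by edgeR, beside 0.781% of all genes (0.487% higher, 0.294% lower), while DESeq2 and limma each gave 1 nominal gene of the 39. Positive differences made up 21 of the 39 and 55.5% of all genes. The median difference was 0.01 for the 39 genes and 0.04 for all genes. Lira values lay below all NGT values for 1 of the 39, Aplnr, beside 1.78% of all genes, and above them for 0 of the 39, beside 2.49% of all genes.

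**Figure D4:**
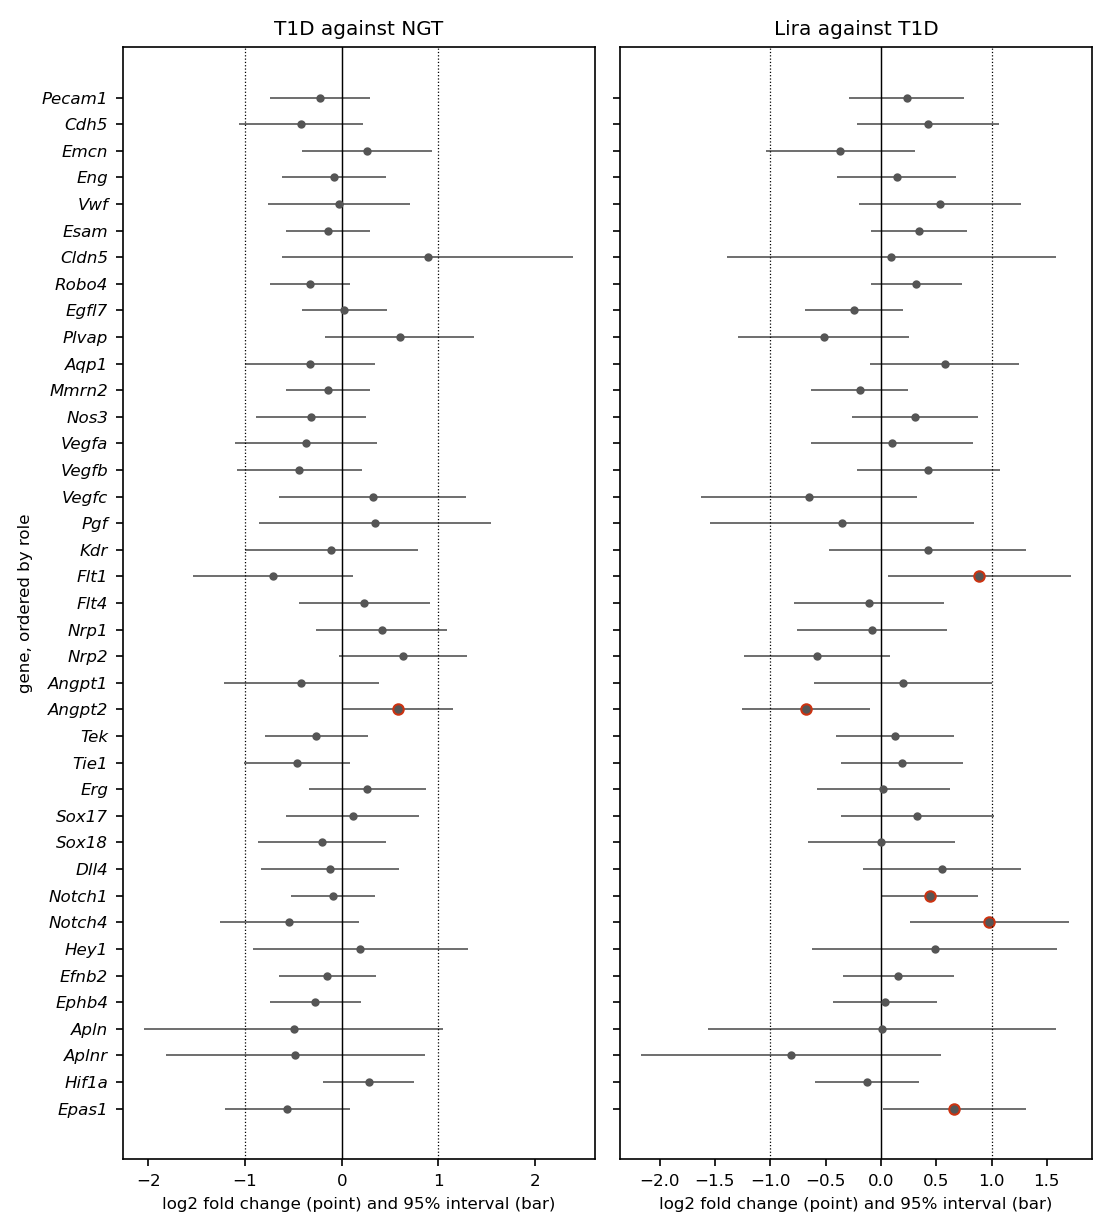
Fitted log2 fold changes of the 39 genes with their 95% confidence intervals, T1D against NGT and Lira against T1D, with nominal genes in red. All 39 points lie within 1 of the zero line in both panels, and the red genes are Angpt2 in the first and Flt1, Notch1, Notch4, Epas1 and Angpt2 in the second.

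Promoter sequences are shown for the 3 nominal genes of Lira against T1D for which the RefSeq promoter table (GRCm38.p6) had an entry. They are the 250 bases before the transcription start, read 5′ to 3′ on the gene's strand. Capitals mark AGGAAG, a core often bound by ETS factors such as Erg, or its reverse complement CTTCCT, and TGACGTCA, the cAMP response element. Both motifs were chosen after the sequences had been seen. The windows are chr5:147726012-147726261 on the minus strand for Flt1, chr2:26503823-26504072 on the minus strand for Notch1 and chr17:34564045-34564294 on the plus strand for Notch4.
Flt1: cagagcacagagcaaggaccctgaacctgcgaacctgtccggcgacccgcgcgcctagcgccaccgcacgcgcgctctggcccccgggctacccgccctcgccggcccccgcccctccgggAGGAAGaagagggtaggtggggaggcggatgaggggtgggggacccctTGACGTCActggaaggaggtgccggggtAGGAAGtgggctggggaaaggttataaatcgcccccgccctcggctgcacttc
Notch1: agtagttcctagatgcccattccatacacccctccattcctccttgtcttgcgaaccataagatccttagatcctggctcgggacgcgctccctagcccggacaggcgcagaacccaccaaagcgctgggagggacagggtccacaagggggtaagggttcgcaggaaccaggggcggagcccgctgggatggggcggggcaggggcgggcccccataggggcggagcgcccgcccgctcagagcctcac
Notch4: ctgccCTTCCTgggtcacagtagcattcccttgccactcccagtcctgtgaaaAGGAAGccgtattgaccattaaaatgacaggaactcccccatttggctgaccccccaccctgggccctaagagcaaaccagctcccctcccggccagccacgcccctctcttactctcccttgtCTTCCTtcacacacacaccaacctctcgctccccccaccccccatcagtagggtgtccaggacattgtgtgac

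The Flt1 window held 2 AGGAAG and 1 TGACGTCA, the Notch4 window 3 AGGAAG and the Notch1 window 0 of either. On either strand AGGAAG occurred in 12 of the 31 windows of the 25 genes with an entry, and in 29.5% of all 32851 windows. TGACGTCA occurred in 1 of 31 and in 1.55% of all windows. The hypoxia-inducible factor core ACGTG was found in 2 of 31 (16.6% of all), the RBPJ core TGGGAA, through which Notch acts, in 7 of 31 (21.6% of all), and the ETS core CCGGAA in 1 of 31 (12.0% of all). No motif overlapped another in the windows shown. A match describes these letters only, and the lack of a match says only that the letters are not in this window. Angpt2 and Epas1 had no entry.

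Among surface and junction markers, Pecam1 encodes CD31, which holds neighbouring endothelial cells together. Its CPM was 124, 130 and 81.1 in NGT mice 1 to 3, 91.9, 103 and 91.6 in T1D mice, and 135, 114 and 86.6 in Lira mice. The 3 groups overlapped, with the lowest value in NGT mouse 3 and the highest in Lira mouse 1. The log2 difference was -0.23 with SE 0.23 for T1D against NGT and 0.23 with SE 0.23 for Lira against T1D, with 95% limits of -0.74 and 0.29 for the first. The first was -0.41 without NGT mouse 3 and -0.10 without NGT mouse 2, and the second 0.38 without Lira mouse 3 and 0.074 without Lira mouse 1. Cdh5, the adhesion molecule of the adherens junction, measured 128, 134 and 85.9 CPM in NGT, 71.8, 97.5 and 90.7 in T1D and 110, 159 and 79.6 in Lira mice. Here too the groups overlapped, since NGT mouse 3 lay below T1D mice 2 and 3. Its differences were -0.42 and 0.42, each with SE 0.28, at unadjusted p-values of 0.168 and 0.17 by edgeR, and without Lira mouse 2 the second was 0.13.

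Robo4, a receptor that stabilises the vessel wall, was 29.3, 26.6 and 25.9 CPM in NGT, 17.8, 23.9 and 23.4 in T1D and 30.4, 28.7 and 22.2 in Lira mice. All T1D values lay below all NGT values, while Lira mouse 3 fell within the T1D range. The difference was -0.33 with SE 0.18 for T1D against NGT, at an unadjusted edgeR p-value of 0.103, and -0.21 without T1D mouse 1. Cldn5, the tight junction protein of the blood-brain barrier and other tight vessels, was 10.8, 8.74 and 6.89 CPM in NGT mice and 12.1, 13.9 and 22.9 in T1D mice. Lira mice measured 38.7, 7.55 and 6.03 CPM of Cldn5. T1D values were all above NGT values, but the Lira group held both the highest and the lowest value of the 9 libraries. The difference for T1D against NGT was 0.89 with SE 0.66 and 95% limits of -0.62 and 2.39 (0.56 without T1D mouse 3), and the Lira against T1D difference of 0.09 with SE 0.65 became -1.26 without Lira mouse 1.

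Aqp1, which lets water pass the endothelial and red cell membrane, was 282, 311 and 339 CPM in NGT, 183, 270 and 289 in T1D and 536, 299 and 272 in Lira mice. Lira mouse 1 stood apart, and the groups overlapped. The other 8 markers of this role also overlapped between groups in both comparisons. Emcn, a sialomucin of venous and capillary endothelium, ranged from 14.6 to 28.7 CPM over the 9 libraries and Eng, a co-receptor for TGF-beta family ligands, from 51.5 to 88.5. Vwf, the clotting factor that endothelium stores and that megakaryocytes also make, ranged from 20.3 CPM in NGT mouse 3 to 62.2 in Lira mouse 3. The megakaryocyte markers averaged 5.23 on the log2(CPM + 1) scale in Lira mouse 3 and at most 3.75 in the other libraries, and their part in the Vwf value was not tested. Plvap, which forms the diaphragms of fenestrated vessels, ranged from 19.9 CPM in NGT mouse 2 to 56.0 in T1D mouse 1. Between same-numbered mice its T1D value was higher in 3 of 3 pairs, by 0.44, 0.73 and 0.68 in log2(CPM + 1). The same held for 19.2% of all genes. The blocked edgeR fit of the 6 libraries, in which 14.2% of all genes were nominal, gave Plvap an unadjusted p-value of 0.00412 and an adjusted one of 0.229. Esam, Egfl7, Mmrn2 and Nos3, the endothelial nitric oxide synthase, differed over the libraries by factors of 1.52 to 1.80.

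Of the VEGF ligands, Vegfa, the main signal for vessel growth, was 242, 240 and 201 CPM in NGT, 132, 173 and 226 in T1D and 139, 288 and 140 in Lira mice. T1D mouse 3 lay among the NGT mice, and Lira mouse 2 was the highest of all. The difference was -0.36 with SE 0.32 for T1D against NGT and 0.10 with SE 0.32 for Lira against T1D. Without T1D mouse 1 the first was -0.19, without T1D mouse 3 it was -0.58, and without Lira mouse 2 the second was -0.34. Vegfb, a Flt1 ligand abundant in muscle, was 131, 160 and 137 CPM in NGT, 111, 100 and 105 in T1D and 124, 212 and 89.5 in Lira mice. Every T1D value lay below every NGT value, whereas Lira mouse 3 lay below all T1D mice. Its T1D against NGT difference was -0.44 with SE 0.28 at an unadjusted edgeR p-value of 0.159. The ligand of lymphatic growth Vegfc (1.57 to 4.51 CPM) and Pgf (0.464 to 1.51 CPM) were low in all 9 libraries, and their groups overlapped.

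Flt1, the VEGF receptor that also acts as a decoy and whose promoter window held 2 AGGAAG, was 76.7, 74.6 and 59.0 CPM in NGT, 22.7, 55.6 and 50.2 in T1D and 99.6, 88.6 and 49.7 in Lira mice. The group means were 70.1 ± 9.70, 42.8 ± 17.6 and 79.3 ± 26.2 CPM (SD, n = 3 each). All T1D mice lay below all NGT mice, but Lira mouse 3 was within the T1D range. The T1D against NGT difference was -0.71 with SE 0.36, 95% limits of -1.53 and 0.11 and an unadjusted edgeR p-value of 0.0822, and it was -0.41 without T1D mouse 1. For Lira against T1D it was 0.89 with SE 0.36 and 95% limits of 0.06 and 1.71. The unadjusted p-value of edgeR's quasi-likelihood test was 0.0378 and its Benjamini-Hochberg adjusted p-value 0.978. Without T1D mouse 1, the library with the most macrophage RNA and the least muscle RNA, the difference was 0.58.

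Kdr, the main signalling receptor for Vegfa, was 51.9, 47.3 and 36.0 CPM in NGT, 28.8, 54.1 and 42.5 in T1D and 42.8, 92.6 and 32.8 in Lira mice. The groups overlapped, and 1 library, Lira mouse 2, stood above the other 8. The differences were -0.11 and 0.42, both with SE 0.39, and changed sign to 0.098 without T1D mouse 1 and to -0.15 without Lira mouse 2. Nrp1, a co-receptor for VEGF and semaphorins, was 58.8, 44.9 and 42.4 CPM in NGT, 84.6, 61.9 and 48.3 in T1D and 50.9, 87.5 and 46.2 in Lira mice. Its highest values were in Lira mouse 2 and T1D mouse 1, and the groups overlapped. Nrp2, the neuropilin of veins and lymphatics, was 26.3, 15 and 15 CPM in NGT, 39.6, 23.6 and 24.2 in T1D and 19.6, 17.1 and 21.8 in Lira mice. All Lira mice lay below all T1D mice, while NGT mouse 1 lay above T1D mice 2 and 3. The difference was 0.63 with SE 0.29 for T1D against NGT and -0.58 with SE 0.29 for Lira against T1D, with unadjusted edgeR p-values of 0.0582 and 0.0781. Its value was highest in T1D mouse 1, the library with the highest macrophage markers, and without that mouse the T1D against NGT difference was 0.34 and the Lira against T1D difference -0.29. Without NGT mouse 1 the first was 0.96. Between same-numbered mice its T1D value was higher in all 3 pairs, by 0.58, 0.62 and 0.65 in log2(CPM + 1). The same held for 19.2% of all genes. The blocked edgeR fit, in which 14.2% of all genes were nominal, gave Nrp2 an unadjusted p-value of 0.00341 and an adjusted one of 0.229. Flt4, the receptor of lymphatic endothelium, ranged from 9.18 to 16 CPM with overlapping groups.

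In the angiopoietin and Tie system, Angpt2 is released by endothelium that is being remodelled and blocks Tek. It measured 4.19, 4.64 and 3.09 CPM in NGT, 5.98, 5.5 and 6.34 in T1D and 3.57, 3.66 and 3.90 in Lira mice. All 3 T1D mice lay above the other 6, and the NGT and Lira mice overlapped. Means were 3.97 ± 0.799, 5.94 ± 0.419 and 3.71 ± 0.173 CPM (SD, n = 3 each), resting on 39 to 110 counts per library. The differences were 0.58 with SE 0.25 (95% limits 0.01 and 1.15) for T1D against NGT and -0.68 with SE 0.25 (95% limits -1.25 and -0.10) for Lira against T1D. By edgeR's quasi-likelihood test the unadjusted p-values were 0.0484 and 0.026 and the Benjamini-Hochberg adjusted p-values 0.977 and 0.978. Leaving out any 1 mouse kept the direction in both comparisons, with differences of 0.43 to 0.70 and of -0.73 to -0.63. For T1D against NGT it was nominal in 4 of 14 alternatives, which were DESeq2, limma, the filter on detection in a group and the fit without NGT mouse 2. In the other 10 the unadjusted p-value reached up to 0.154, without NGT mouse 3, and with the mouse number as a block in the edgeR fit of the 6 libraries it was 0.0841.

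Angpt1, the activating Tek ligand made by cells around vessels, was 34.1, 33.5 and 27.1 CPM in NGT, 29.95, 18.7 and 22.1 in T1D and 13.1, 34.3 and 34.0 in Lira mice. Lira mouse 1 was lowest, although it held the highest value for 11 of the 39 genes, and the groups overlapped. Tek, the angiopoietin receptor, was 35.4, 29.5 and 24.4 CPM in NGT, 21.9, 30.2 and 22.4 in T1D and 25.8, 34.3 and 21.3 in Lira mice. Its differences of -0.26 and 0.13, both with SE 0.23, changed to -0.43 without T1D mouse 2 and -0.12 without NGT mouse 1 for the first, and to -0.075 without Lira mouse 2 for the second. Tie1, its partner receptor, was 47.6, 44.1 and 33.6 CPM in NGT, 28.8, 33.9 and 28.4 in T1D and 25.9, 47.4 and 30.8 in Lira mice. T1D mouse 2 just exceeded NGT mouse 3, and otherwise the T1D values lay below the NGT values.

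The values of the 3 transcription factors of endothelial identity overlapped between all groups. Erg, an ETS factor that maintains endothelial genes, was 14.1, 11.6 and 10.8 CPM in NGT, 9.40, 18.8 and 15.7 in T1D and 14.3, 16.8 and 13.4 in Lira mice. Sox18, a SoxF factor of vessel development, was 14.4, 17.5 and 13.7 CPM in NGT, 17.5, 13.7 and 8.34 in T1D and 12.4, 16.6 and 10.7 in Lira mice. For both genes the T1D group was spread more widely than the NGT group, and the groups overlapped. Sox17, a SoxF factor of arteries, ranged from 8.32 CPM in T1D mouse 1 to 18.6 in Lira mouse 1.

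All 6 Notch and ephrin genes had a positive fitted difference in Lira against T1D mice, with a median of 0.46, and 2 of them were nominal, beside 55.3% and 1.55% of all genes. Without Lira mouse 1 the differences of 4 of the 6 were positive, with a median of 0.15, and 0 were nominal. Notch4, the Notch receptor largely restricted to endothelium and the one with 3 AGGAAG in its window, was 12.4, 19.0 and 16.4 CPM in NGT, 7.94, 12.0 and 12.9 in T1D and 30.5, 19.4 and 14.9 in Lira mice. All Lira mice lay above all T1D mice, and NGT mouse 1 lay within the T1D range. The difference for Lira against T1D was 0.98 with SE 0.31 and 95% limits of 0.26 and 1.70. It had the lowest unadjusted p-value of the 39 genes, 0.0132, and a Benjamini-Hochberg adjusted p-value of 0.978 from edgeR's quasi-likelihood test. Without Lira mouse 1 it was 0.64 at an unadjusted p-value of 0.059.

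Notch1, the Notch receptor that many cell types use, was 26.8, 23.4 and 17.3 CPM in NGT, 20.1, 20.1 and 23.1 in T1D and 28.5, 25.5 and 32.0 in Lira mice. Each Lira mouse lay above each T1D mouse, whereas NGT mice spanned values from below the T1D to within the Lira range. The Lira against T1D difference was 0.44 with SE 0.19 and 95% limits of 0.01 and 0.88, at an unadjusted edgeR p-value of 0.0464. The Notch target Hey1 was 3.62, 5.88 and 4.67 CPM in NGT, 4.89, 5.89 and 5.40 in T1D and 13.4, 6.31 and 2.98 in Lira mice. The Lira group thus held both the highest and the lowest Hey1 value. Dll4, the Notch ligand of arterial and tip cells, was likewise highest in Lira mouse 1, at 12.3 CPM, and between 4.4 and 7.87 in the other libraries. Ephb4, the receptor of venous endothelium, was 30.2, 28.2 and 19.8 CPM in NGT, 21.0, 20.0 and 23.6 in T1D and 23.4, 25.2 and 17.9 in Lira mice. Its arterial ligand Efnb2 stayed between 9.07 and 14.3 CPM, and the groups overlapped for both.

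Apln, a peptide secreted by sprouting endothelium, was 1.90, 1.31 and 1.58 CPM in NGT, 2.45, 0.589 and 0.333 in T1D and 0.856, 1.48 and 1.09 in Lira mice. With 5 to 45 counts per library, its differences of -0.50 with SE 0.68 and 0.01 with SE 0.69 were poorly determined and were -1.78 and 1.29 without T1D mouse 1, and -0.070 and -0.42 without T1D mouse 3. Its receptor Aplnr was 10.4, 7.12 and 7.36 CPM in NGT, 10.7, 4.32 and 2.80 in T1D and 1.28, 5.06 and 3.85 in Lira mice. All Lira mice lay below all NGT mice, and the T1D mice spread over both ranges. Lira against NGT gave -1.29 with SE 0.60 and an unadjusted edgeR p-value of 0.0617. Aplnr was the only 1 of the 39 whose fitted difference exceeded 2-fold there, beside 5.26% of all genes, and the difference was -0.90 without Lira mouse 1.

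Epas1, the hypoxia-inducible factor prominent in endothelium, was 238, 292 and 217 CPM in NGT, 129, 181 and 194 in T1D and 271, 355 and 174 in Lira mice. All T1D values lay below all NGT values, and Lira mouse 3 lay within the T1D range. The differences were -0.56 with SE 0.28 (95% limits -1.21 and 0.08) and 0.66 with SE 0.28 (95% limits 0.02 and 1.31), with unadjusted edgeR p-values of 0.0793 and 0.0451. Without Lira mouse 2 the second was 0.40. Hif1a, the widely expressed subunit, was 37.6, 39.4 and 29.9 CPM in NGT, 54.4, 38.5 and 36.8 in T1D and 47.2, 35.9 and 36.0 in Lira mice. Its groups overlapped, its differences were 0.28 and -0.12, each with SE 0.21, and its highest value was in T1D mouse 1, without which the differences were 0.079 and 0.077.

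**Figure D5:**
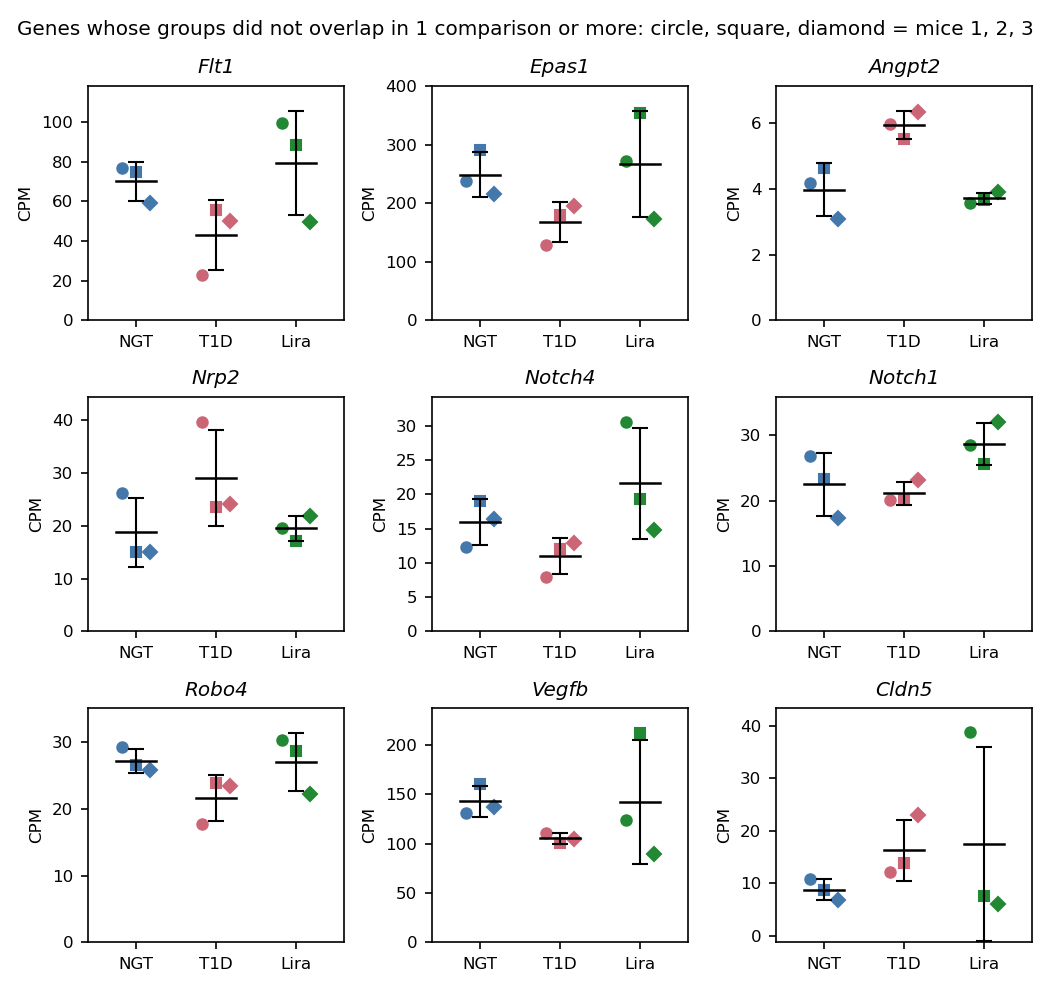
CPM of the 9 genes whose groups did not overlap in T1D against NGT or Lira against T1D, in each of the 3 NGT, 3 T1D and 3 Lira mice (points, shaped by mouse number), with the group mean and SD (bars). For Angpt2 the 3 T1D mice lie above the other 6, and for Flt1 and Epas1 they lie below all NGT mice but overlap with Lira mouse 3.

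Genes of the same pathways outside the 39 were counted from lists by name. Of 35 other endothelial genes, 0 were called by edgeR. Nominal were Calcrl (T1D higher) and Podxl (T1D lower) in T1D against NGT, and Shank3 (Lira higher) and Calcrl (Lira lower) in Lira against T1D. These were 2 of 35 in each comparison, beside 3.95% and 3.33% of all genes. Calcrl, the receptor for adrenomedullin and CGRP, measured 16.2, 20.1 and 17.1 CPM in NGT, 23.1, 25.9 and 25.9 in T1D and 14.3, 18.6 and 13.8 in Lira mice. Like Angpt2, it was higher in all 3 T1D mice than in the other 6 mice, with differences of 0.49 (SE 0.17) and -0.68 (SE 0.17). The medians of the list were 0.02 and 0.09. Of 32 other VEGF, angiopoietin and Notch pathway genes, 0 were called. Nominal were the axon guidance ligand Slit2 in T1D against NGT (1.56, SE 0.51) and the Notch target Hey2 in Lira against T1D (-1.56, SE 0.64). Each was 1 of 32, beside 3.95% and 3.33% of all genes. Hey2 was not nominal with DESeq2 (unadjusted p-value 0.0624) or with limma (-0.53, unadjusted p-value 0.0526), and it was not tested without T1D mouse 1.

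Of 25 hypoxia-responsive and HIF pathway genes tested, 0 were called in either comparison. In T1D against NGT 0 were nominal, beside 3.95% of all genes, and in Lira against T1D 1 was, beside 3.33%. This was the histone demethylase Kdm3a, with a difference of 0.44 (SE 0.19) that was 0.27 without Lira mouse 1. The medians were -0.07 and 0.17. In Lira against NGT 2 of the 25 were nominal with Lira higher, beside 0.487% of all genes, and 3 had all Lira values above all NGT values, beside 2.49% of all genes. The 2 were Ddit4, an inhibitor of mTORC1 signalling (2.08, SE 0.70, unadjusted edgeR p-value 0.0169), and Hif3a, a further HIF alpha subunit (1.66, SE 0.67, unadjusted edgeR p-value 0.0368), and 0 were called. Ddit4 measured 254 CPM in Lira mouse 1 and 63.9 and 66.1 in Lira mice 2 and 3, and without Lira mouse 1 its difference was 1.11, that of Hif3a 1.33, and 0 of the 25 were nominal. The glucose transporter Slc2a1 (0.75, SE 0.38) and the glycolytic regulator Pfkfb3 (1.64, SE 0.80) had the lowest unadjusted p-values in T1D against NGT, 0.0778 and 0.0724. Without T1D mouse 3, which had 705 CPM of Pfkfb3, the difference of Pfkfb3 was 0.74, and without T1D mouse 1 it was 2.09 (unadjusted edgeR p-value 0.0230). That of Slc2a1 was 0.51 without T1D mouse 1 and 1.08 without T1D mouse 3 (unadjusted edgeR p-value 0.00606). Pericyte and smooth muscle markers, the cells that wrap vessels, numbered 12, with medians of -0.05 and 0.05. The contractile genes Tagln (-0.67, SE 0.23) and Cnn1 (-1.24, SE 0.48) were nominal with Lira lower than T1D, and 0 were called. These were 2 of the 12, beside 1.78% of all genes.

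With the mouse number as a block in the edgeR fit of the 6 NGT and T1D libraries, in which 14.2% of all genes were nominal, more list genes were nominal and 0 were called. Nominal were 4 higher and 4 lower of 35 other endothelial genes, 4 higher of 31 other VEGF, angiopoietin and Notch pathway genes, 3 higher and 2 lower of 25 hypoxia-responsive genes and 1 higher and 1 lower of 12 pericyte markers. In the same fit 7 of 10 sinusoidal and lymphatic genes and 9 of 9 macrophage and osteoclast markers were nominal with T1D higher.

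Sinusoidal and lymphatic endothelial genes had 10 of 10 positive differences in T1D against NGT (median 0.95), beside 52.1% of all genes. Nominal with T1D higher were 2 of the 10, beside 2.36% of all genes. In Lira against T1D they had 10 of 10 negative differences (median -0.62), beside 44.7% of all genes. Nominal with Lira lower was 1 of the 10, beside 1.78% of all genes, and 0 were called in either comparison. Without T1D mouse 1 there were 10 positive ones with a median of 0.51 in the first comparison, and 7 negative ones with a median of -0.18 in the second. Pdpn, a mucin of lymphatic endothelium and osteocytes, and the Fc receptor Fcgr2b of liver-type sinusoids and macrophages were nominal in the first, and Pdpn also in the second, but without T1D mouse 1 neither was nominal. Pdpn measured 29.7 CPM in T1D mouse 1 and 4.67 to 10.3 in the other libraries, and Fcgr2b 45.3 in T1D mouse 1 and 1.55 to 15.5 elsewhere. In the same mouse the macrophage genes Adgre1, C1qa and C1qb stood at 60.9, 229 and 243 CPM, against at most 6.89, 22.4 and 16.6 in the other 8 libraries. Of 10 macrophage and osteoclast markers, 6 were nominal with T1D higher than NGT (median 2.42) and 2 with Lira lower than T1D (median -1.66), beside 2.36% and 1.78% of all genes. Without T1D mouse 1 none of the 9 that were then tested was nominal by edgeR in either comparison, the medians were 0.56 and 0.12, and 5 of the 9 differences in Lira against T1D were positive. Their part in the sinusoidal and lymphatic values was not tested.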

How the data were processed

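Total RNA of whole tibia, cleaned of muscle according to the methods, was enriched for poly(A) RNA and sequenced from DNA nanoballs. The authors deposited, for each of the 9 libraries, estimated counts per gene (not all whole) and FPKM. The build in the submitters' processing notes is mm9; aligner, counter and strand use are not given in the sources used here. All columns were assigned to samples (0 unused). Counts were rounded, and a minimum of 10 counts in 3 or more libraries was required. Group means over 9 libraries were fitted with edgeR 4.0.16 (TMM, quasi-likelihood F test, Benjamini-Hochberg adjustment; R 4.3.3), and calls needed, as in the study, more than a 2-fold change at an adjusted p-value under 0.05. Alternatives used DESeq2 1.42.0, limma 3.58.1, library-size scaling, no or another filter, the 6 libraries compared, a replicate block and each mouse left out. FPKM were used for levels between genes. Totals of 13086373 to 16528394 counts per library allow 3 counts to be seen at 0.163 to 0.237 CPM, a counting limit only.

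The members and gene lists were chosen with earlier results of these data known. Values by library were given for the 2 members of each role with the highest mean FPKM, members with an unadjusted p-value under 0.05 in any comparison, members whose groups did not overlap in T1D against NGT or Lira against T1D, and 11 key genes, 25 in all, and ranges for the other 14. From other lists, called genes or the 2 with the lowest p-values could be named. Calcrl, Slc2a1 and other list genes beyond the members fell under that rule, while the macrophage genes given by library, and Mpo, Mmp8 and Retnlg, were chosen after their values were seen.

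The study's methods describe no pairing of mice. Same-numbered NGT and T1D libraries correlated in their deviations from the group means (r = 0.58, 0.65 and 0.28), so the number was used as a block there. This block was chosen from the same libraries that it was applied to, which limits its p-values. Libraries of different number could also correlate, such as NGT mouse 1 with Lira mouse 3 (r = 0.78). Correlations of Lira with T1D and NGT were -0.24 and -0.17 for number 1, 0.61 and 0.73 for number 2 and 0.27 and 0.01 for number 3, so not every pair was over 0.1 and the numbers were not taken as pairs there.

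The test was tested on simulated data with 200 of 13960 genes changed in T1D against NGT: of 4-fold changes 114 were recovered with 1 false call, of 16-fold changes 184 with 10.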

Additional observations from a re-analysis of the deposited data

How the results depend on the processing

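With 3 mice per group and a median standard error of 0.29 on the log2 scale, and calls that need more than a 2-fold change, a missed threshold does not show that a gene did not differ. No member was called under any alternative. Of all genes, 0 were called under each, except 1 gene outside the 39 by DESeq2 in Lira against T1D. With the mouse number as a replicate block over 9 libraries, 1 member had an unadjusted p-value under 0.05 in T1D against NGT and 4 in Lira against T1D. In a block of the 6 NGT and T1D libraries alone, chosen after seeing the data, 8 did, beside 14.2% of all genes in that fit, and 0 were called.

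For T1D against NGT the 1 member under 0.05, Angpt2, was another gene with library-size scaling (Epas1), with the block over 9 libraries (Nrp2) and without T1D mouse 2 (Flt1). The count became 0 without the count filter and 4 in a fit of the 6 libraries, and 0 to 2 with a mouse left out. For Lira against T1D the 5 became 3 with library-size scaling, with the 6 libraries and with limma, and 1 to 11 with a mouse left out. For Lira against NGT the 0 became 1 with DESeq2, the 6 libraries and limma, and 0 to 3 with a mouse left out. The cause was not tested.

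The sign of the Lira against T1D difference of Cldn5 turned to -0.019 with library-size scaling, -0.33 with the block and -0.32 with limma, and that of Apln to -0.23 with library-size scaling. With each mouse left out in turn, the differences ran from -1.26 to 0.50 for Cldn5, -0.34 to 0.31 for Vegfa, -0.27 to 0.077 for Hif1a, -0.42 to 1.29 for Apln, -0.15 to 0.69 for Kdr, -0.0043 to 0.53 for Angpt1 and -0.075 to 0.29 for Tek. In T1D against NGT they ran from -0.35 to 0.10 for Kdr and -0.25 to 0.056 for Notch1. Of the 37 log2 differences of members followed under these alternatives, the directions of the others did not turn. Differences of further members did turn. With library-size scaling the positive differences among the 39 in Lira against T1D went from 27 to 22. Without NGT mouse 1 those in T1D against NGT went from 14 to 18.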
